A study of Mus musculus with 908 samples.

Results

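Among single tumour cells sorted for a TGF-beta reporter from mouse skin squamous cell carcinoma, cells with Cd80 transcript were compared with cells in which it was not detected. Members were the reporter-positive libraries of plates CSC1 and CSC2 with at least 6000 genes at 1 TPM or more (TPM is a transcript's length-normalised share of its library), spike-in RNA not counted. A cell was Cd80-positive at a Cd80 TPM of at least 1 and Cd80-negative below it. The 94 members were 78 Cd80-positive and 16 Cd80-negative cells, which is 59.5% of the reporter-positive libraries, out of 908 libraries in the series. The classes were chosen by Cd80 TPM in the same libraries, so its own difference between them is a description and not a result.

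Cd80 (B7-1) is a surface ligand that antigen-presenting cells show to T cells. It binds CD28, which co-stimulates a T cell, and CTLA-4, which restrains it. Cells of skin epithelium do not usually act as professional antigen-presenting cells, and a tumour cell with Cd80 can in principle engage either receptor. A SMAD-binding-element reporter lights up in cells whose TGF-beta receptors have activated SMAD transcription factors. In skin carcinoma such cells lie at the tumour edge and are known for a basal, invasive and slow-cycling state.

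All members came from mice with the strain name TRE-HrasG12V;SBE-mCherry-PGK-rtTA3, in which a tetracycline-responsive promoter drives activated Hras and a SMAD-binding element drives mCherry. The mice were at postnatal days 60 to 90, both sexes were mixed, and cells were taken before adoptive cell transfer, an immunotherapy with infused immune cells. The gate kept cells with integrin α6, mCherry, CD34 and CD44 at the surface and dropped those with CD45, CD117, CD140a or CD31. The labels name no animal or tumour, so both classes are parts of 1 sample, cells are not replicates, and no test or p-value was computed. Intervals on shares of cells are exact Clopper-Pearson 95% intervals that cover the counting of cells only. Read depth cannot be had from TPM, and genes at 1 TPM or more per cell were counted in its place. This number ran from 6005 to 9780 in positive cells, with a median of 7929.5, and from 6053 to 8467 in negative cells, with a median of 7292.

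The mouse Cd80 gene (ENSMUSG00000075122) lies on the plus strand of chromosome 16 at 38455561 to 38496335 in build mm10. The 250 bases before its RefSeq transcription start (chr16:38458683-38458932, plus strand, GRCm38.p6) are shown because the classes turn on transcription of this gene. The window lies downstream of the gene's first base, within its span, so it stands for this start only. Capitals mark the match to TGANTCA, a loose form of the AP-1 motif of Fos and Jun factors. N stands for any base, and in this match it was T.
Cd80 promoter: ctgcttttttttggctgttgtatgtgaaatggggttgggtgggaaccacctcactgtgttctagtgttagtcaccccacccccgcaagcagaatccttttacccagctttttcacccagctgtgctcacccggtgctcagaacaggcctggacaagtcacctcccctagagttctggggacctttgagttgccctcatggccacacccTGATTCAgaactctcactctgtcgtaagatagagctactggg
The AP-1 match began 42 bases before the start, and 6.75% of 32851 promoter windows of the same length held such a match on either strand. The SMAD motif GTCTAGAC, held by 0.167% of windows, the shorter SMAD box CAGAC, held by 42.2%, and TATAAA, held by 12.4%, had no match in these letters on either strand. Motif matches are descriptions of the sequence and not binding sites.

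Cd80 TPM in the 78 positive cells ran from 1 to 62.41 with a median of 8.57. Of the 16 negative cells, 14 were at 0 and the others were at 0.79 and 0.94. Just inside the threshold lay 1, 1.07, 1.15 and 1.18, so the classes touched at the boundary but most cells lay far from it. Cd80-positive cells made up 82.98% of members (73.8% to 89.9%). The share was 84.3% of 70 cells on CSC1 (73.6% to 91.9%) and 79.2% of 24 cells on CSC2 (57.8% to 92.9%). It moved with the number of genes per cell: 5 of 10 cells with 6000 to 7000 genes, 39 of 48 with 7000 to 8000 and 34 of 36 with 8000 or more were positive. How far gene detection set the class was not tested.

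For all members apart from 1 CSC2 cell a repeat library was found. Libraries of 2 further plates, OT_C for CSC1 and OT_D for CSC2, matched 93 of the 94 members by correlation of all genes, and 92 of these lay in a well of the same name. The other, H5 of CSC1, shared the repeat in well H6 with its neighbour H6, so the 93 members rest on 92 distinct repeat libraries. Pearson's r between a member and its repeat ran from 0.827 to 0.941 with a median of 0.917. The repeat plates are labelled as cells taken after therapy, and which label is right is not settled here. They gave a second reading of Cd80 that the classes had not used. Cd80 reached 1 TPM in the repeat of 69 of 77 positive cells (89.6%, 80.6% to 95.4%) and of 4 of 16 negative cells (25%, 7.27% to 52.4%). The class was the same in 81 of 93 cells (87.1%, 78.5% to 93.2%). With the shared repeat counted once, these were 68 of 76 positive cells and 80 of 92 cells. Agreement depended on the level: Cd80 was found again in 6 of 11 positive cells at 1 to 2 TPM, 8 of 9 at 2 to 5, 26 of 27 at 5 to 10 and 29 of 30 at 10 or more. Across the 93 pairs, which share the cell's cDNA or RNA, r of log2(TPM + 1) of Cd80 was 0.856. The libraries of H5 and H6 on CSC1 had r of 0.910 with each other and may hold 1 cell in 2 wells, and both were positive.

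**Figure D1:**
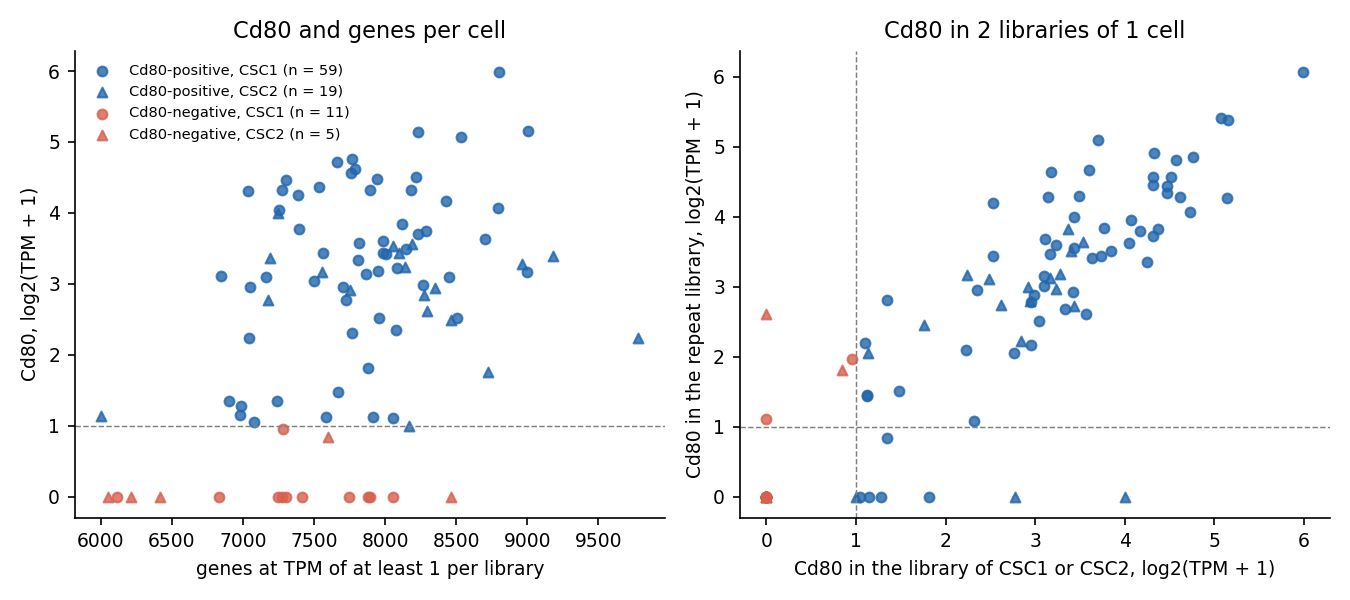
Left, Cd80 as log2(TPM + 1) against genes at 1 TPM or more in each of the 94 members; right, Cd80 in the member's library against its repeat library for 93 pairs. Dashed lines mark the threshold of 1 TPM; colour gives the class and shape the plate. Of the 10 cells with under 7000 genes 5 are negative, the other negative cells overlap the positive ones in genes per cell, and most cells with Cd80 above 5 TPM had it again in the repeat.

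Before the comparison, 3 libraries have to be set apart. Wells F10, F9 and F8 of CSC2, all Cd80-negative, held 15.7%, 16.4% and 46.7% of their TPM in ribosomal rows, a set of 8 abundant RNAs. The other 91 members held at least 51.4%, and the repeats of the 3 held 16.2%, 17.3% and 48.9%. They had 6053 to 6418 genes. Every other gene's TPM is a share of what the ribosomal rows leave, and 3 of 16 cells weigh heavily in a mean. Many results below are therefore given with all 16 negative cells and with the 13 that remain. This alternative was chosen after the data had been seen. Where no value for the 13 is given and no other setting is named, class comparisons rest on all 16.

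Both classes were keratinocytes by their markers. Of 8 marker sets, that of keratinocytes (Krt5, Krt14, Trp63, Cdh1 and 8 others) had the highest summed TPM in 78 of 78 positive and 16 of 16 negative cells, from 5394 to 33011 and from 7175 to 27216. The 14 macrophage and dendritic cell markers summed to 0 to 48.6 TPM in positive cells (median 2.23) and 0 to 24.2 in negative cells (median 2.15). Cd207, the Langerhans cell marker, and Flt3, a dendritic cell receptor, were at 0 in every member, and 6 of the 14 stayed under 1 TPM in all positive cells and 11 in all negative cells. The summed level of markers of Cd80's usual source thus had nearly the same median in both classes.

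Of the other B7 ligands, Cd86, which shares both receptors with Cd80, was at 0 in all 78 positive cells, which allows a share of up to 4.62%, and in all 16 negative cells, which allows up to 20.6%. Pdcd1lg2 (PD-L2) was also at 1 TPM or more in 0 of 78 and 0 of 16. Cd274 (PD-L1), the ligand of PD-1, was detected in 13 of 78 positive cells (16.7%, 9.18% to 26.8%) and 1 of 16 negative cells (6.25%, 0.158% to 30.2%), and these intervals overlap. The most often detected were Cd276 (B7-H3), in 53 of 78 and 9 of 16 cells, and Icosl, the ligand of ICOS, in 50 of 78 and 7 of 16. Cd276 ran from 0 through a median of 15.5 to 78.3 TPM in positive cells and from 0 through 1.90 to 84.2 in negative cells, so the ranges overlapped throughout. The receptors themselves were nearly absent: Cd28 was at 0 in all members, and Ctla4 reached 1 TPM in 1 of 78 positive and 0 of 16 negative cells.

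To compare the classes gene by gene, the log2 ratio of mean TPM + 1 was taken for 11053 genes with a mean of at least 1 TPM over the members. Values below are such log2 ratios, positive over negative, unless a TPM level is named. At least 2-fold higher in positive cells were 613 genes (5.55%), and at least 2-fold lower were 653 (5.91%). Most members are positive, so the limit lets in sparse genes seen in positive cells more readily than those seen in negative cells. Of the 4106 genes with a mean of at least 10 TPM, 1.85% were higher and 6.75% lower. With 13 negative cells 696 genes (6.3%) were higher and 1.76% were lower. On CSC1 alone 877 genes (7.93%) were higher and 2.3% lower, and on CSC2 alone, with 5 negative cells, 1878 (17%) and 1599 (14.5%). In the repeat libraries 4.87% were higher and 610 genes (5.52%) lower. How many genes kept their call in each direction depended on the setting. Of the 613 higher genes, 80.8% stayed at least 2-fold higher without the 3 libraries, and of the 653 lower genes 19.6% stayed lower. On CSC1, which holds none of the 3, the shares were 77.2% and 22.8%. In settings that keep the 3 libraries the order was the other way round, with 61.2% and 87.4% on CSC2, 60.7% and 90.8% against positive cells matched in genes per cell, 65.4% and 92.3% among cells with 6000 to 8000 genes, and 48.3% and 65.7% in the repeats. Both without the 3 and in the repeats of those cells, 42.6% of the 613 and 8.42% of the 653 were at least 2-fold different in the same direction. With ribosomal and spike-in rows taken out and TPM rescaled, 9.27% of genes were higher and 3.999% lower, and the median of all genes moved from 0.10 to 0.18.

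Of genes higher in Cd80-positive cells, the 12 with the largest difference of mean log2(TPM + 1), among genes that passed the limits on level and on share of cells and had the same sign on both plates, were led by Stk16 and Serpine2. All 12 kept their direction in the repeat libraries, and 7 were again at least 2-fold higher there. These 7 were Serpine2, Adgre5, Cd82, Klhl26, Cpped1, Slc43a2 and 1600012H06Rik.

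Serpine2 encodes protease nexin-1, a secreted inhibitor of thrombin, urokinase and related serine proteases. It ran from 0 through a median of 0.645 to 194.66 TPM in positive cells and from 0 through 0 to 2.35 in negative cells. It was detected in 37 of 78 positive cells (47.4%, 36.01% to 59.1%) and 1 of 16 negative cells (6.25%, 0.158% to 30.2%), and 36 positive cells lay above the highest negative one. Detection was 27 of 59 against 0 of 11 cells on CSC1, and 10 of 19 against 1 of 5 on CSC2. In the repeats it was 38 of 77 against 1 of 16. The log2 ratio was 4.13, and it was 4.09 against the 13 negative cells, 3.64 against positive cells matched in genes per cell, and 3.97 in the repeats. Serpine2 was thus near 0 in the negative class and variable in the positive class, in which about as many cells lacked it as had it. By detection it did not follow the Cd80 level within the positive class. It was detected in 19 of the 39 positive cells above the median of Cd80 and in 18 of the 39 below it.

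Adgre5 encodes CD97, an adhesion receptor of the G-protein-coupled class. It ran from 0 through 8.62 to 86.09 TPM in positive cells and from 0 through 0.645 to 17.32 in negative cells, and was detected in 63 of 78 and 8 of 16. The log2 ratio was 2.02, and 2.28 against 13 negative cells, 2.18 on CSC1, 1.62 on CSC2 and 1.56 in the repeats. Cd82, a tetraspanin that organises integrins and other membrane proteins, ran from 0 through 24.3 to 344.3 TPM in positive cells and from 0 through 3.86 to 101.4 in negative cells. Its log2 ratio was 1.30, with 1.16 against 13 negative cells and 1.502 in the repeats, and 0.79 against cells matched in genes per cell. Both are surface proteins whose ranges overlapped between the classes, while the medians were far apart.

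Stk16, a membrane-associated kinase, was detected in 75 of 78 positive cells (96.2%, 89.2% to 99.2%) and 8 of 16 negative cells (50%, 24.7% to 75.3%). The repeats of the same cells gave a smaller gap, 74 of 77 against 12 of 16, and the log2 ratio went from 1.09 to 0.86. Dbndd2 went from 1.51 to 0.44, the unnamed gene 9030624G23Rik from 1.43 to 0.46 and Naa35, a subunit of an N-terminal acetyltransferase, from 1.38 to 0.49. Dxo, an enzyme that removes faulty RNA caps, gave 1.39 and 0.98. For each of these genes, part of the first difference was not seen again in a second library of the same cells. Klhl26, of the Kelch-like family, gave 1.56 and 1.80, Cpped1, a phosphatase, 1.31 and 1.44, and Slc43a2, an amino acid transporter, 1.33 and 1.34.

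**Figure D2:**
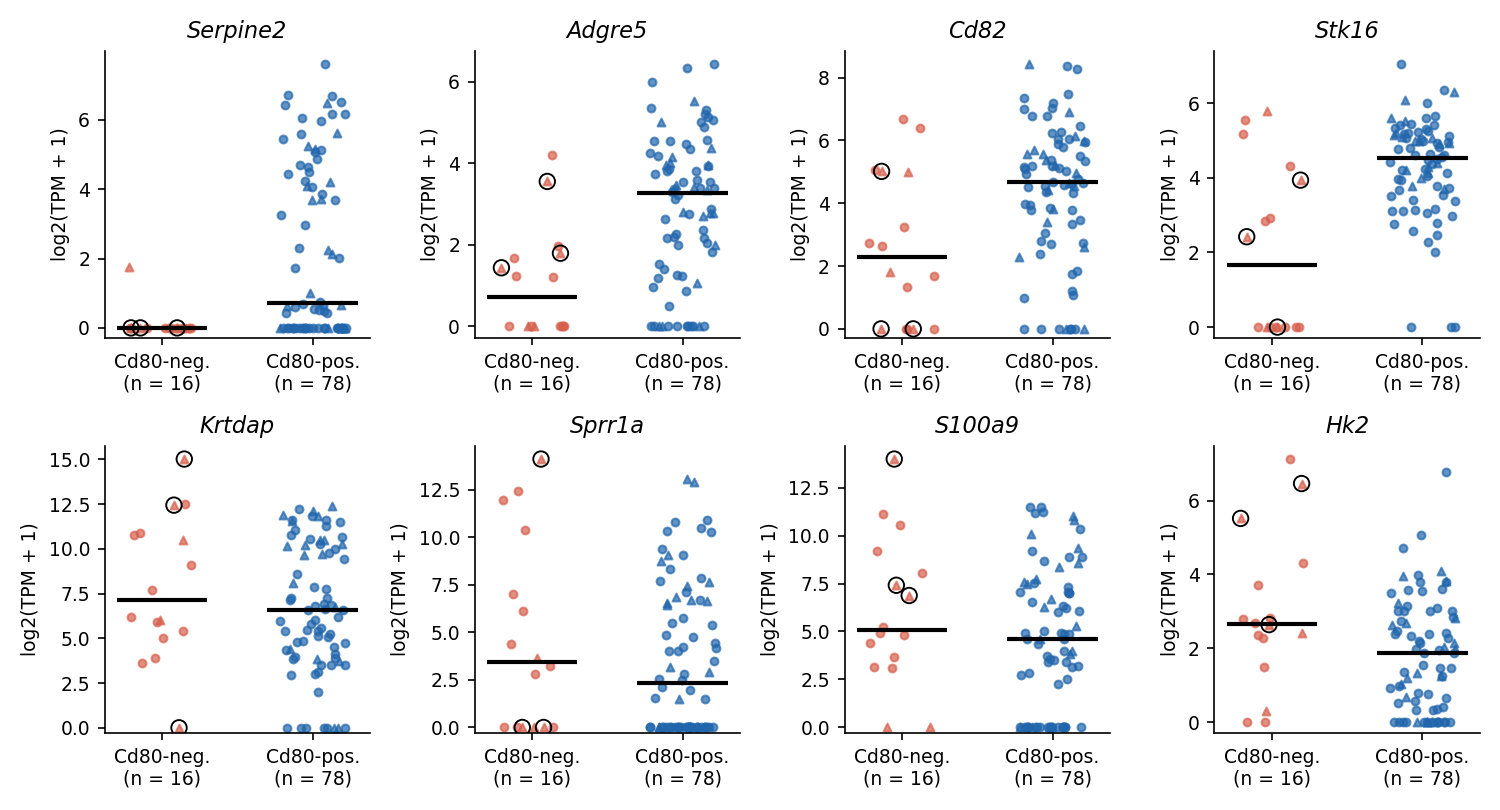
Log2(TPM + 1) of 8 genes in each of the 16 Cd80-negative and 78 Cd80-positive cells; the bar is the median, circles are CSC1, triangles CSC2, and black rings mark the 3 negative libraries with under 50% ribosomal rows. Serpine2 is at or near 0 in every negative cell, while for Krtdap, Sprr1a and S100a9 the highest negative value belongs to a ringed library.

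The 12 genes lower in Cd80-positive cells by the same rule were all at least 2-fold lower on CSC2 and in the repeats, but 2 of them, Defb1 and Sprr1a, were so against the 13 negative cells. Defb1, an antimicrobial beta-defensin, ran from 0 through 0 to 77.55 TPM in positive cells and from 0 through 3.02 to 134.71 in negative cells. It was detected in 24 of 78 and 8 of 16 cells, and its log2 ratio was -1.65, with -1.60 against 13 negative cells, -1.68 on CSC1 and -1.66 on CSC2. These like ratios rest mostly on single cells, and the same sign on both plates was part of the rule. On CSC1 and among the 13, negative cell E5 of CSC1 held 134.71 TPM and the next 29.35. On CSC2 the highest negative value was 51.7, in F8, 1 of the 3 libraries set apart. Sprr1a, a small proline-rich protein of the cornified envelope, ran from 0 through 4.01 to 8635 TPM in positive cells and from 0 through 9.91 to 17669 in negative cells. Its log2 ratio was -2.31, and -1.23 against 13 negative cells.

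The other 10 genes moved with the 3 libraries. S100a9, a subunit of the alarmin calprotectin, had a mean of 286.4 TPM in positive cells and 1328 in negative cells, one of which was at 16240. Without the 3 libraries the ratio went from -2.21 to -0.34, and that of its partner S100a8 from -1.84 to -0.37. S100a9 was at 0.0045 among cells with at least 7000 genes. Pin4, Ufm1, Dpm3, Cysrt1, Calm4, 1500011K16Rik, Gm12744 and Gm26909 lay between -3.66 and -1.43 with all 16 negative cells and between -0.97 and -0.21 with 13. In the repeats without the 3, Pin4, Gm12744 and Gm26909 turned to 0.21, 0.70 and 0.28. Outside these 12, Slpi, a secreted protease inhibitor of barrier epithelium named from the list of stress keratins and alarmins, went from -7.04 to -0.47, a difference carried by 1 negative cell at 25404 TPM.

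Suprabasal and cornified envelope genes are made by keratinocytes that leave the basal layer. Of 18 tested, 11 were at least 2-fold lower in positive cells and 1, Krt1, was higher, with a median of -1.18 beside 0.10 for all genes. Against 13 negative cells, 2 were lower (Sprr1a and Sprr2d) and 3 higher (Krt1, Klk6 and Klk7), with a median of -0.24. Krt1 turned to -0.93 on CSC2, and Sprr2d to 0.047 there. Among cells with at least 7000 genes the median of the list was 0.22. On CSC1, which holds none of the 3 libraries, 7 of 18 were lower and 3 higher, with a median of -0.81. Of the 11 lower genes 9 thus lost their call with 3 cells, and no direction can be given for the list. With ribosomal and spike-in rows taken out and TPM rescaled, the median over all 16 was still -1.06. Of the 3 libraries, F8 had a mean log2(TPM + 1) over the list of 8.60, the highest of any member. F10 had 3.33 and F9 0.74. Whether the ribosomal share made the difference was not tested. Krtdap, the keratinocyte differentiation-associated protein, ran from 0 through 94.3 to 5469 TPM in positive cells and from 0 through 137.9 to 33263 in negative cells, and the ratio of -1.98 became -0.20. Of 14 basal keratinocyte genes 0 were 2-fold different, with a median of 0.08. Of all genes 5.55% were higher and 5.91% lower, so a count of 0 says little for so short a list. By the difference of mean log2(TPM + 1) the median was 0.41 for basal keratinocyte genes and 0.18 for all genes. Among them, Itga3, a laminin-binding integrin chain, had 0.01, and Lama3, a chain of laminin-332, had 0.07.

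Oxidative phosphorylation subunits, the machinery of mitochondrial respiration, moved with the 3 libraries. Of 19 tested, 6 were at least 2-fold lower in positive cells, beside 5.91% of all genes, and the median was -0.76. Against 13 negative cells 0 were lower, beside 1.76% of all genes, and the median was 0.15. Cox5b went from -1.37 to 0.02, Cox4i1 from -1.06 to 0.05 and Uqcrh from -1.09 to 0.07.

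The reporter reads TGF-beta signalling in all members. Of 19 TGF-beta and SMAD response genes 0 were 2-fold different, with a median of 0.08. Of all genes 5.55% were higher and 5.91% lower. A count of 0 or 1 thus says little for so short a list, here and for the other lists of this paragraph. Tgfb1, the ligand, was detected in 66 of 78 positive cells (84.6%, 74.7% to 91.8%) and 9 of 16 negative cells (56.3%, 29.9% to 80.2%). Its ratio was 0.68, and 0.67 against 13 negative cells, 0.45 on CSC1, 1.37 on CSC2 and 0.89 in the repeats, so it was on the higher side in each of these but under 2-fold in all except CSC2. Of 15 RAS and MAPK feedback targets, which read activated Hras, 1 was higher and 1 lower, with a median of 0.30. Dusp6, the ERK phosphatase, had 0.56 and Etv4, an ETS factor, 0.75. Immediate early genes, which include genes of AP-1 factors, had 0 of 18 at 2-fold and a median of 0.02. Fos ran from 0 through 127.4 to 564.6 TPM in positive cells and from 4.01 through 141.7 to 399.2 in negative cells. Of 17 NF-kB targets, 1 was higher (Il1a, at 1.002) and 2 lower, with a median of 0.04. Against 13 negative cells 2 were higher and 0 lower, beside 6.3% and 1.76% of all genes, with a median of 0.25. Those 2 did not include Il1a, and 1 of them was among the 2 lower with all 16 negative cells. Nfkb1, the p105 and p50 subunit, had 0.89, and Ikbke, a kinase of the pathway, had 0.97, both under 2-fold.

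Of 15 interferon-response genes 3 were at least 2-fold higher (Gbp2, Gbp3 and Tgtp2) and 0 lower, beside 5.55% and 5.91% of all genes. The median was 0.67, the highest of the lists with at least 10 genes tested. On CSC1 7 were higher and 0 lower, with a median of 0.80, and on CSC2 0 were higher and 2 lower, with a median of 0.17. Of all genes 7.93% were higher and 2.3% lower on CSC1, and 17% and 14.5% on CSC2. The median of all genes was 0.18 on CSC1 and 0.14 on CSC2. Gbp2 and Gbp3 were at -0.060 and -0.62 on CSC2, and Gbp3 and Tgtp2 at -0.67 and -1.29 with a Cd80 threshold of 5 TPM. The list median was 0.51 against 13 negative cells, 0.03 at the threshold of 5 TPM, and 0.10 against positive cells matched in genes per cell, where that of all genes was -0.04. Tgtp2 was detected in 4 of 78 positive cells and was at 0 in all negative cells, and Gbp3 was detected in 11 and 1. Of 4 MHC class II genes, which present antigen to CD4 T cells, Cd74 and H2-Eb1 were at least 2-fold higher, at 2.13 and 1.19. Cd74, the invariant chain, was detected in 21 of 78 cells and reached 192.9 TPM, against 2 of 16 and 3.48. H2-Aa and H2-Ab1, the chains of I-A, had -0.04 and -0.39, so 2 of the 4 class II genes were higher and 2 were not. MHC class I and antigen processing genes had 0 of 18 higher and 1 lower (median 0.11), near the shares of all genes for so short a list. Of 16 chemokines and cytokines 5 were higher and 1 lower, beside 5.55% and 5.91% of all genes. Against 13 negative cells 6 of these chemokines and cytokines were higher and 0 lower, beside 6.3% and 1.76%. Their median of 0.10 was that of all genes, and it was -0.15 against positive cells matched in genes per cell. Cxcl9, a T cell attractant, was detected in 10 of 78 positive cells and in 0 of 16 negative cells, where it stayed at or under 0.73 TPM, with a ratio of 2.80, and 2.97 in the repeats, but -0.46 at a Cd80 threshold of 5 TPM. Nt5e (CD73), which makes adenosine, was in 76 of 78 and 15 of 16 cells, with 0.71, and Ptgs2 (COX-2) was detected in 30 and 5, with 1.51, but -0.18 at the threshold of 5 TPM.

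Cd44, a gate protein and hyaluronan receptor, was detected in every member. It ran from 100.3 through 355.3 to 1355 TPM in positive cells and from 61.1 through 283.4 to 464.9 in negative cells, with a ratio of 0.67, and 0.71 in the repeats. Cd34, the other stem-cell gate protein, was detected in 27 of 78 positive and 8 of 16 negative cells, with -0.54. Sox9, a progenitor factor, had 0.45. Stra6, a retinol transporter, ran from 0 through 132.3 to 1077 TPM against 0 through 52.5 to 349.3, with a ratio of 0.98, and 0.72 against 13 negative cells. Aldh1a3, which makes retinoic acid, and Hk2, the first enzyme of glycolysis, were lower, at -1.94 and -1.72. Against 13 negative cells they were at -1.46 and -1.30, carried mostly by 1 cell. That cell, C3 of CSC1, held 149.29 and 139.47 TPM, and no other of the 13 was above 24.21 and 18.8. It had 6113 genes. Among cells with at least 7000 genes, which leave it out, both genes reversed, to 0.40 and 0.12. Plau, urokinase, ran from 0 through 226.99 to 1966 TPM against 0 through 27.2 to 736.9, with 0.99, and 1.02 in the repeats. As a list, matrix and protease genes had 0 of 17 at 2-fold, beside 5.55% of all genes higher and 5.91% lower, and a median of 0.03.

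Cell cycle genes were read from lists of mitosis and S phase genes. Of 22 mitosis genes 2 were lower (Top2a and Ccnb2) and 0 higher, beside 5.91% and 5.55% of all genes, with a median of -0.43. Without the 3 libraries 1 was lower, neither Top2a nor Ccnb2, and 0 were higher, with a median of -0.41. On CSC1 the median was 0.16, and Top2a was at 0.79. Mki67 was detected in 18 of 78 positive cells (23.1%, 14.3% to 33.997%) and 4 of 16 negative cells (25%, 7.27% to 52.4%). At least 50% of the mitosis genes were detected in 15 of 78 (19.2%, 11.2% to 29.7%) and 4 of 16 (25%, 7.27% to 52.4%). Of 18 S phase genes 0 were 2-fold different, which says little beside those shares of all genes, with a median of -0.45. By detection the direction was the other way. At least 50% of the S phase genes were detected in 51 of 78 positive cells (65.4%, 53.8% to 75.8%). Among negative cells they were detected in 7 of 16 (43.75%, 19.8% to 70.1%), and in 6 of 13 without the 3 libraries. Cdkn1a (p21), which arrests the cycle and is a TGF-beta target, ran from 27.3 through 211.5 to 1549 TPM in positive cells and from 0 through 169.6 to 904 in negative cells, with 0.18.

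**Figure D3:**
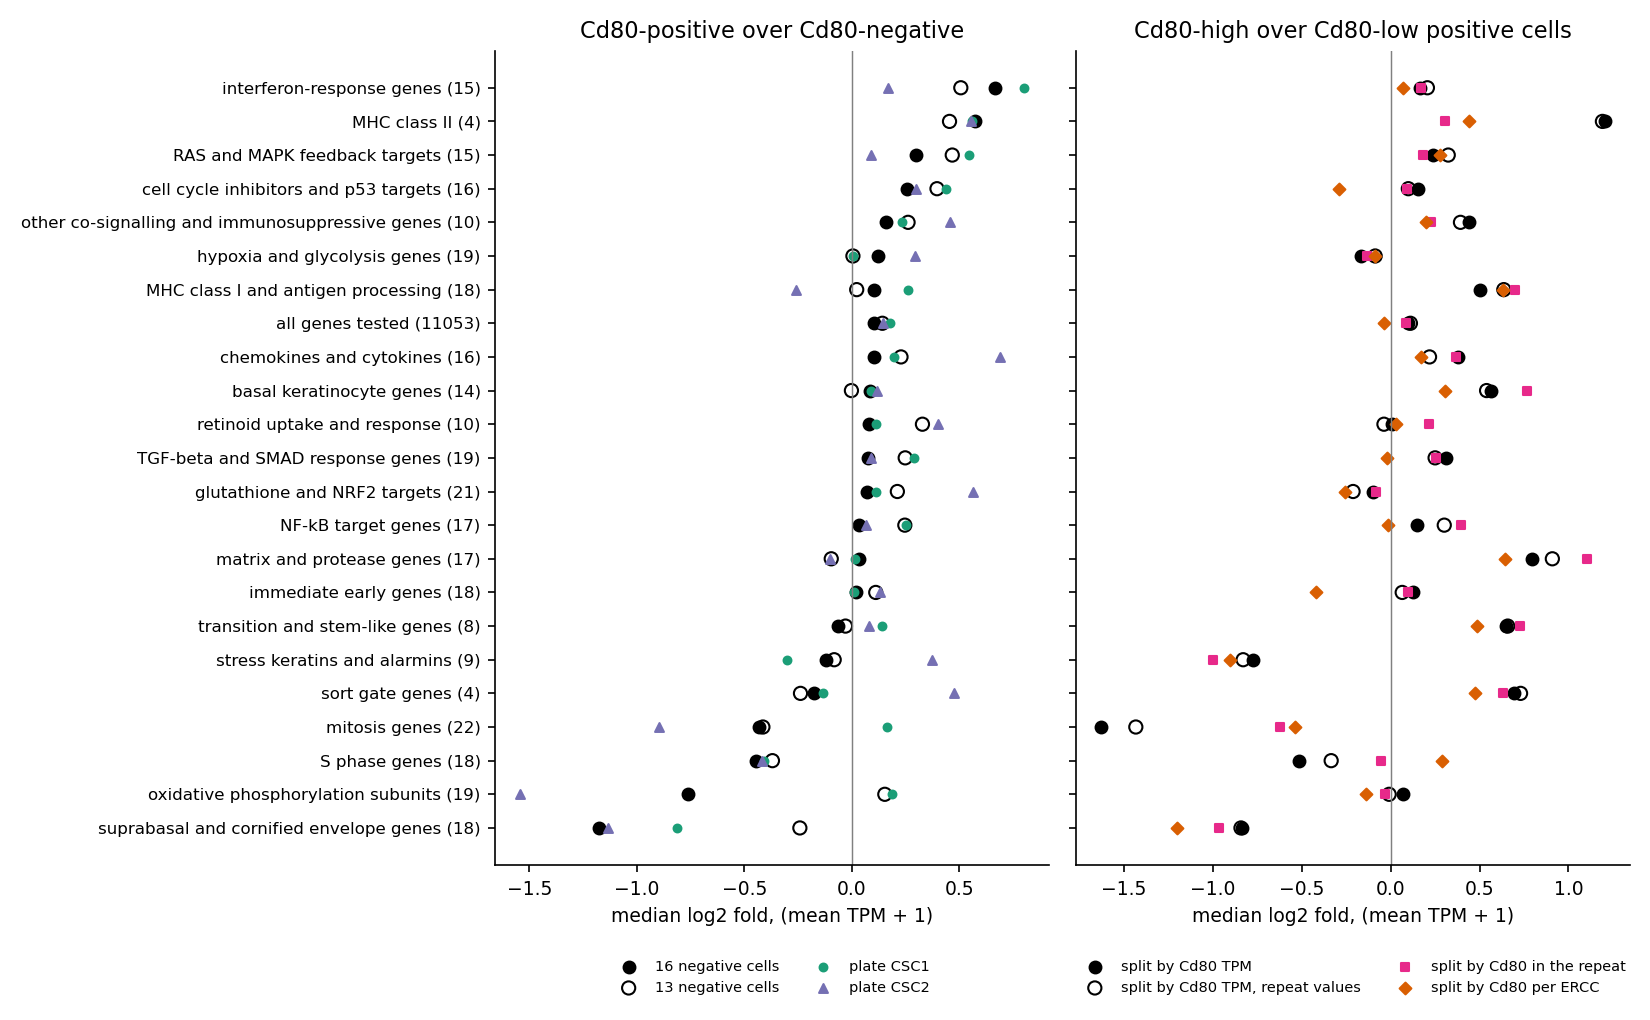
Median log2 ratio of mean TPM + 1 over the genes of each list, with the number tested in brackets. Left, Cd80-positive over negative cells with all 16 or with 13 negative cells and by plate; right, Cd80-high over Cd80-low positive cells, split by Cd80 TPM (values of members or of their repeats), by Cd80 in the repeat or by Cd80 per spike-in. Suprabasal and oxidative phosphorylation lists move toward 0 on the left without the 3 libraries, and the matrix list stands to the right of 0 in all 4 settings on the right.

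The level of Cd80 within the positive class gave a second comparison, chosen after the data had been seen, with larger and more even numbers. Positive cells were split at their median Cd80. The 39 Cd80-high cells had Cd80 from 8.72 through a median of 15.46 to 62.41 TPM, and the 39 Cd80-low cells from 1 through 4.75 to 8.42. The groups had medians of 7987 and 7869 genes at 1 TPM or more, and were close in spike-in share (0.271% and 0.274%) and ribosomal rows (71.3% and 71.8%). The Cd80-high group held 32 cells of CSC1 and the Cd80-low group 27. Of the 11053 genes, 2.38% were at least 2-fold higher and 2.97% at least 2-fold lower in Cd80-high cells. Because a ranking by TPM has counting error and is a share of the cell's other RNA, the cells were also split by Cd80 in the repeat library, and by Cd80 relative to the summed spike-in TPM. Each of these kept 31 of the 39 Cd80-high cells.

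Matrix and protease genes, which remodel the tissue around a tumour cell, were higher in Cd80-high cells: 7 of 17 at least 2-fold higher and 0 lower, with a median of 0.80 beside 0.10 for all genes. The median was 0.77 on CSC1, 0.88 on CSC2 and 0.91 with the values of the repeats. It was 1.10 with the split made in the repeat library (10 of 17 genes) and 0.64 with the split made per spike-in (5 of 17). Mmp3, Mmp9, Timp1, Tnc and Itga5 were among the 7, and were named after their values were seen. Itga5, the fibronectin receptor chain, ran from 0.36 through a median of 18.9 to 292.8 TPM in Cd80-high cells and from 0 through 7.38 to 120.6 in Cd80-low cells. Its log2 ratio was 1.18, with 1.26 and 1.18 when split in the repeat library or per spike-in, in that order here and below, but -0.28 on CSC2. Tnc, tenascin C, ran from 0 through 17.8 to 686 against 0 through 2.22 to 235.5, with 1.05, 1.68 and 1.07. Timp1, an inhibitor of metalloproteases, had 1.62, 2.08 and 2.36, while Mmp9, a gelatinase, had 1.65, 1.94 and 0.49. For each of these genes the groups overlapped, and the highest cell was Cd80-high. Cd44 had 0.69, 0.66 and 0.64.

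Suprabasal genes were lower in Cd80-high cells: 7 of 18 at least 2-fold lower and 2 higher (Klk6 and Klk7), with a median of -0.83. The median was -1.03 on CSC1, -0.61 on CSC2 and -0.84 with the values of the repeats, and -0.96 and -1.20 with the split made in the repeat library or per spike-in. None of the 3 libraries set apart above enters here. Krtdap ran from 0 through 47.4 to 5469 TPM in Cd80-high cells and from 0 through 118.01 to 4812 in Cd80-low cells, with -1.25, -1.65 and -1.68. Calm4, a calmodulin-like protein of differentiating epidermis, ran from 0 through 10.6 to 118.4 against 0 through 20.8 to 1276, with -2.57, -2.42 and -1.43. Sprr2h was detected in 11 against 20 of 39 cells, with -1.71, -1.67 and -0.72. Basal keratinocyte genes had a median of 0.57 and stress keratins and alarmins one of -0.77.

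Mitosis genes were lower in Cd80-high cells when the split was made by Cd80 TPM: 20 of 22 at least 2-fold lower, with a median of -1.63, and -1.67 on CSC1 and -1.16 on CSC2. At least 50% of these genes were detected in 2 of 39 Cd80-high cells (5.13%, 0.627% to 17.3%) and 13 of 39 of the Cd80-low cells (33.3%, 19.1% to 50.2%). Top2a, the mitotic topoisomerase, was detected in 4 and 18 of 39 cells, with a ratio of -2.90, and Plk1, a mitotic kinase, in 2 and 15, with -2.15. This was the pattern that moved most with how the split was made. With Cd80 from the repeat library 6 of 22 genes were 2-fold lower, with a median of -0.62 and 4 of 38 against 11 of 39 cells. With Cd80 per spike-in 0 of 22 were, with a median of -0.54 and 6 against 9 of 39 cells. Top2a then had -1.33 and -0.89 and Plk1 -0.23 and -0.02. The 15 positive cells with at least 50% of the mitosis genes had a median Cd80 of 6.92 TPM, and 6.85 in the repeats, and the other 63 had 9.76, and 10.1 in the repeats. The direction was the same in all 3 settings, and its size cannot be given from these cells.

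**Figure D4:**
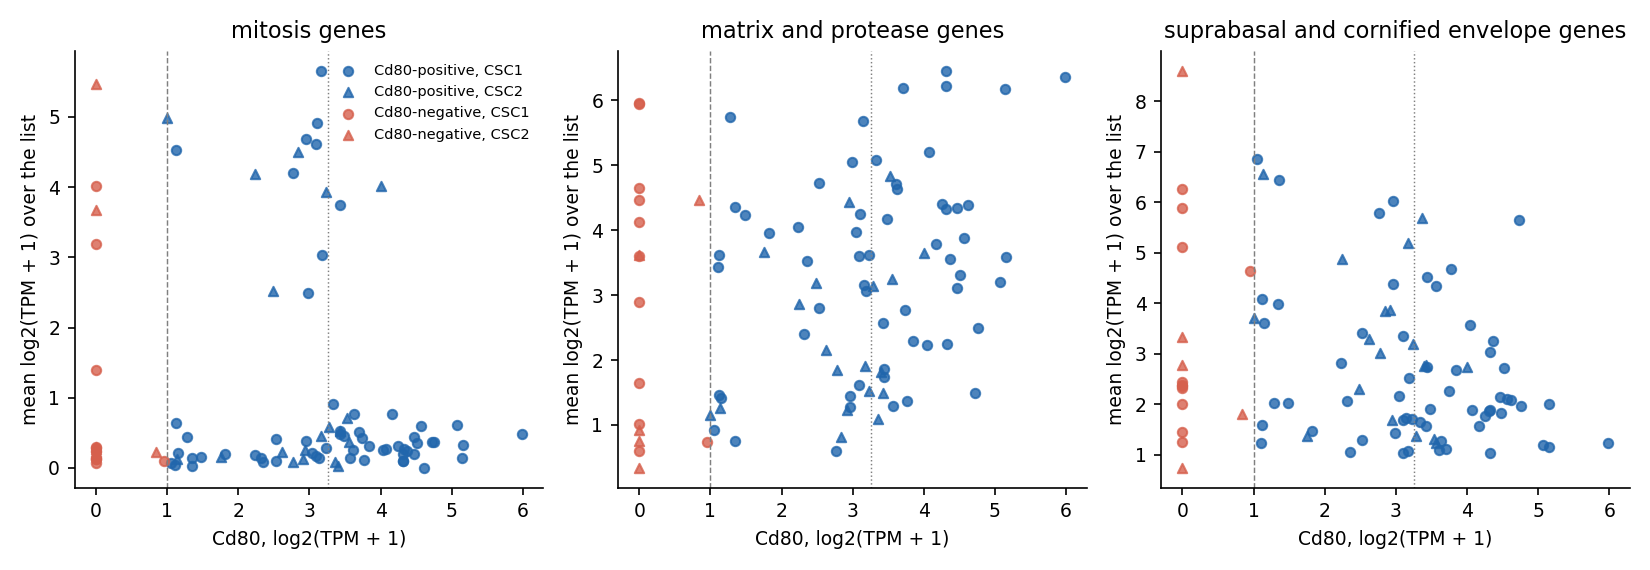
Mean log2(TPM + 1) over the mitosis, matrix and protease, and suprabasal lists in each cell against Cd80 as log2(TPM + 1); the dashed line is the class threshold of 1 TPM and the dotted line the median split of the positive class. Cells high in mitosis genes lie mostly left of the dotted line, and the negative cells at 0 are spread widely in all 3 lists.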

How the data were processed

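Single-cell cDNA was made by the Smart-seq2 full-length protocol and tagmented, per the labels' protocols. The deposited values are TPM per gene and library, computed by the authors. Bowtie2 2.2.9, RSEM 1.2.30 and build mm10 appear in the submitters' processing notes. How multi-mapping reads and strand were handled was not given in the sources used here, and values of near-identical paralogs are uncertain. The tables hold 46517 gene rows and 92 spike-in rows, and 46005 genes matched GENCODE M21. The ribosomal rows, which hold the protein-coding gene Lars2 and the rows Yam1 and Gm26917 beside ribosomal RNA, take most TPM in most members. This compresses all other values.

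Python 3.11.15, pandas 2.3.3, numpy 2.4.6 and SciPy 1.17.1 were used. Ratios are log2 of (mean TPM + 1) in one class over the other, which understates the change of low genes; genes needed a mean of 1 TPM over members. The ratio and counts were tested on simulated data. A pair of libraries was taken as 1 cell when r was at least 0.88, or when each correlated best with the other and r exceeded that of the next library by 0.05, among 696 libraries with at least 2000 genes. Named genes are the 12 per direction with the largest difference of mean log2(TPM + 1), with a mean of at least 10 TPM and detection in at least 40% of cells of the higher class, at least 2-fold different and of the same sign on both plates and among cells with 6000 to 8000 genes; up to 4 per list with the largest difference; and a set list of co-signalling, gate and cycle genes. Others were named after their values were seen: Mmp3, Mmp9, Timp1, Tnc, Itga5, Plk1, Sprr2d, Krt1, Klk6, Klk7, Gbp2 and Tgtp2. Members, lists and rules were chosen with earlier results of these data known. The 25 gene lists and 8 marker sets are from general knowledge. Promoter sequence is from RefSeq (GRCm38.p6). Cells gated otherwise and libraries labelled after therapy were not analysed here except as repeats. Alternatives covered thresholds, depth, plates, pseudocount, scaling, repeats and single cells.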

Additional observations from a re-analysis of the deposited data

How the results depend on the processing

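No paired analysis was possible because replicate numbers were given in accession order and no test was made. With 16 negative cells of 1 sample, unknown read depth and no animal named, all values describe these cells. The share of Cd80-positive cells was 61.7% at a threshold of 5 TPM and 94.4% among cells with at least 8000 genes. The share of genes tested that were higher in positive cells was 1.91% at the threshold of 5 TPM, 16.99% on CSC2, 9.73% with a pseudocount of 0.1, 2.71% by the difference of mean log2(TPM + 1), 9.51% without each gene's highest cell per class, 9.27% without ribosomal and spike-in rows and 1.85% of the 4106 genes with a mean of at least 10 TPM, beside 5.55% as reported. The share lower, reported as 5.91%, was 3.11% at 5 TPM, 2.24% with at least 7000 genes, 2.30% on CSC1, 14.5% on CSC2, 0.706% by mean log2, 1.51% without the highest cells, 6.75% of those 4106, 1.76% without the 3 libraries under 50% ribosomal rows and 1.47% in the repeats of the others. Between Cd80-high and Cd80-low positive cells, 6.64% of genes were higher and 6.50% lower on CSC2, 1.02% and 0.588% by mean log2, and 4.54% lower without ribosomal and spike-in rows.

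Many list medians were near 0, and 19 of 24 changed sign under at least 1 of 18 settings. Suprabasal genes, the list at 2-fold or more, were at 0.22 with at least 7000 genes. Oxidative phosphorylation went from -0.76 to 0.12 there, 0.19 on CSC1 and 0.15 without the 3 libraries, simple epithelial keratins (2 genes) from -0.83 to 0.68, 0.73 and 0.76, mitosis genes from -0.43 to 0.16 on CSC1, and S phase genes from -0.45 to 0.081 at 5 TPM. Between Cd80-high and Cd80-low cells 12 of 24 changed sign under at least 1 of 8 settings, among them MHC class II, from 1.203 to -0.55 on CSC2, interferon-response genes, from 0.17 to -0.27 there, S phase genes, from -0.51 to 0.33 there and 0.29 per spike-in, and immediate early genes, from 0.13 to -0.42 per spike-in. Single genes at least 2-fold different as reported took the other sign as follows. With at least 7000 genes, S100a9 had 0.0045, Tnfsf9 1.15, Krt8 1.78, Hk2 0.12, Aldh1a3 0.40, Uqcrh 0.087, Cox4i1 0.017, Sprr2d 0.95, Klk6 2.999 and Klk7 2.05. At the threshold of 5 TPM, Ptgs2 had -0.18, Gbp3 -0.67, Cxcl9 -0.46, Krt1 -2.92 and Tgtp2 -1.29. On CSC1, Krt8 had 1.67, Top2a 0.79, Cox5b 0.11, Cox4i1 0.087, Klk6 3.14 and Klk7 2.05. On CSC2, Tnfsf9 had 2.15, Gbp3 -0.62, Sprr2d 0.047, Krt1 -0.93 and Gbp2 -0.060. Without the 3 libraries, Krt8 had 1.74, Cox5b 0.020, Uqcrh 0.073, Cox4i1 0.047, Klk6 3.03 and Klk7 2.05. In the repeats without them, Gm12744 had 0.70, Pin4 0.21, Gm26909 0.28, Krt8 1.89, Uqcrh 0.064, Cox4i1 0.021, Klk6 2.88, Klk7 1.88 and Tgtp2 -0.034. Without the highest cells, Tnfsf9 had 1.13, Krt8 1.61, Klk6 0.32 and Klk7 0.84. Tnfsf9 had 0.26 as the mean of the plates and 0.38 by mean log2, Krt8 1.76 with the same class in both libraries, and Krt1 -0.75 for Cd80-high against the negative cells. The cause of each was not tested.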
